A study of Mus musculus with 12 samples.

Results

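Regulatory T cells were compared with effector T cells of the same transfer, both from donors with an intact Blimp1 gene. The submitters' label pTreg names the regulatory cells as peripherally induced, and their origin was not tested here. The comparison rested on 6 of the 12 arrays of the study: 3 of Foxp3-positive cells (Ctrl Treg 1 to 3, labelled pTreg by the submitters) and 3 of Foxp3-negative cells (Ctrl Teff 1 to 3). All arrays with these labels were used and no measured value chose them, so the genes below were tested across the whole array. The donors were C57BL/6 mice aged 8 to 12 weeks whose T cells carried the Foxp3GFP reporter and an allotype marker. Naive CD4+CD44low cells from donors with Blimp1 (Ctrl) and from donors deficient for it (CKO) were injected together, in equal parts, into RAG1-/- mice, which lack T and B cells of their own but keep myeloid cells. After 6 to 8 weeks the progeny were sorted by CD4, Foxp3 and allotype. Cells from large-intestinal lamina propria, spleen and mesenteric lymph nodes were pooled and stimulated for 4 h with PMA and ionomycin. All 4 groups shared the reporter, the lymphopenic host and the stimulation. The remaining 6 arrays, 3 labelled CKO Treg and 3 labelled CKO Teff, entered the same model and are described only beside the genes found in Ctrl.

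Regulatory T cells restrain other lymphocytes and are defined by the transcription factor Foxp3, which naive CD4 T cells can switch on outside the thymus when they meet antigen together with TGF-beta, above all in the intestine. Effector T cells that arise from the same naive pool in a lymphopenic host drive colitis and make IL-17, interferon gamma, TNF and GM-CSF. PMA and ionomycin bypass the T cell receptor, activate protein kinase C and calcium signalling, and so reveal which cytokine genes a cell is poised to transcribe.

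Each value is a deposited log2 intensity, in which 1 unit is a doubling and the median of an array lies near the background (the arrays had medians from 4.66 to 4.68). The number of arrays limits the precision. In bulk cells, fewer cells that express a gene and less RNA per cell cannot be told apart. The labels do not say that the 3 arrays of a group came from separate mice, and p-values then cover only the scatter among these samples, which may be technical. Over all 31641 probes, correlations between the 6 Ctrl arrays ran from 0.953 to 0.983. The T cell identity was checked first. Over 9 tested markers of T cells and CD4 cells the mean log2 value lay between 10.21 and 10.69 on the 6 arrays and overlapped between Treg and Teff, whereas 6 tested B cell and plasma cell markers had means of 4.55 to 4.74, near the array median. Cd4 itself was dim, at 5.50 to 6.40.

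Neutrophil markers were present on several arrays and did not follow the sort. The mean over 22 tested markers was 8.49, 5.77 and 8.14 on Ctrl Treg 1 to 3 and 7.37, 9.50 and 5.78 on Ctrl Teff 1 to 3. S100a8, a calcium-binding protein that neutrophils make in large amounts, ranged from 10.86 to 14.54. The arrays of the 2 populations overlapped throughout this list, and 0 of its 22 members passed the test (0 also had an unadjusted p under 0.05). Ctrl Teff 2 carried the highest level and stood apart from the other effector arrays in several gene groups named below. Without it, 21 of the 22 were positive, with a median difference of 0.89. Macrophage, monocyte and dendritic cell markers, with means of 5.79 to 7.71, were also highest on Ctrl Teff 2, and 0 of 20 passed (2 with an unadjusted p under 0.05). With the neutrophil mean as a term in the model, 122 of the 123 calls below were kept, and 186 genes passed in all. That mean was on average similar in Ctrl Treg and Ctrl Teff, so the term could change the differences only little. The part of the neutrophil signal in the calls is not settled by this fit.

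**Figure D1:**
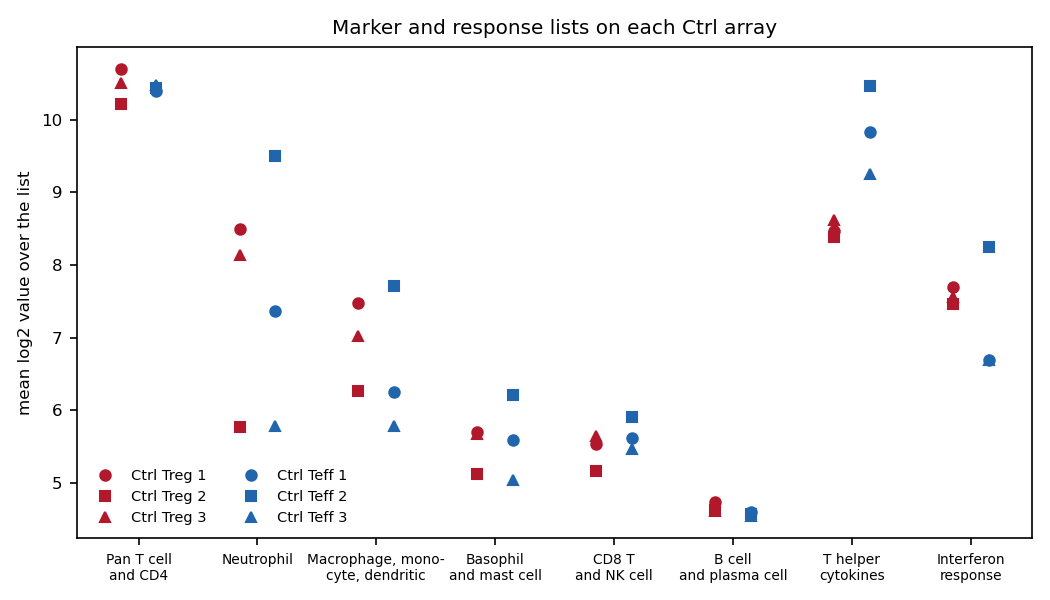
Mean deposited log2 value (y axis) of 6 marker lists and 2 response lists on each of the 6 Ctrl arrays; red marks Treg and blue Teff, and the symbol gives the array number. Pan-T markers are level across the arrays, neutrophil markers range from 5.77 to 8.49 in Treg and from 5.78 to 9.50 in Teff, and the T helper cytokine mean is higher on each Teff array (9.25 to 10.46) than on each Treg array (8.39 to 8.62).

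Of 12119 genes, 123 passed the threshold between Treg and Teff, which is 1.01% of those tested (limma, Benjamini-Hochberg adjusted p under 0.05). In Treg, 73 genes were higher (0.602%) and 50 lower (0.413%). The unadjusted p was under 0.05 for 1260 genes (10.4%), of which 717 were higher (5.92%) and 543 lower (4.48%). Among the 73 higher genes 55 differed by at least 2-fold and 13 by at least 4-fold, and among the 50 lower genes the counts were 41 and 17. In all 123 the values of the 2 populations did not overlap, against 14.3% of all genes (7.83% higher and 6.47% lower). Since these genes were called on the same values, this follows largely from the choice and is no separate support. The size of the called set depended on the arrays fitted. When only the 6 Ctrl arrays were fitted, 29 genes passed, 27 of them among the 123. Without 1 array the count fell to 51 (Ctrl Treg 1), 44 (Ctrl Treg 2), 49 (Ctrl Teff 1) or 70 (Ctrl Teff 2). Of the 123 genes, 36 passed whichever of the 12 arrays was left out. These include 9 of the 15 largest rises and 5 of the 15 largest falls. Beside a difference, ± gives its standard error in the fit.

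**Figure D2:**
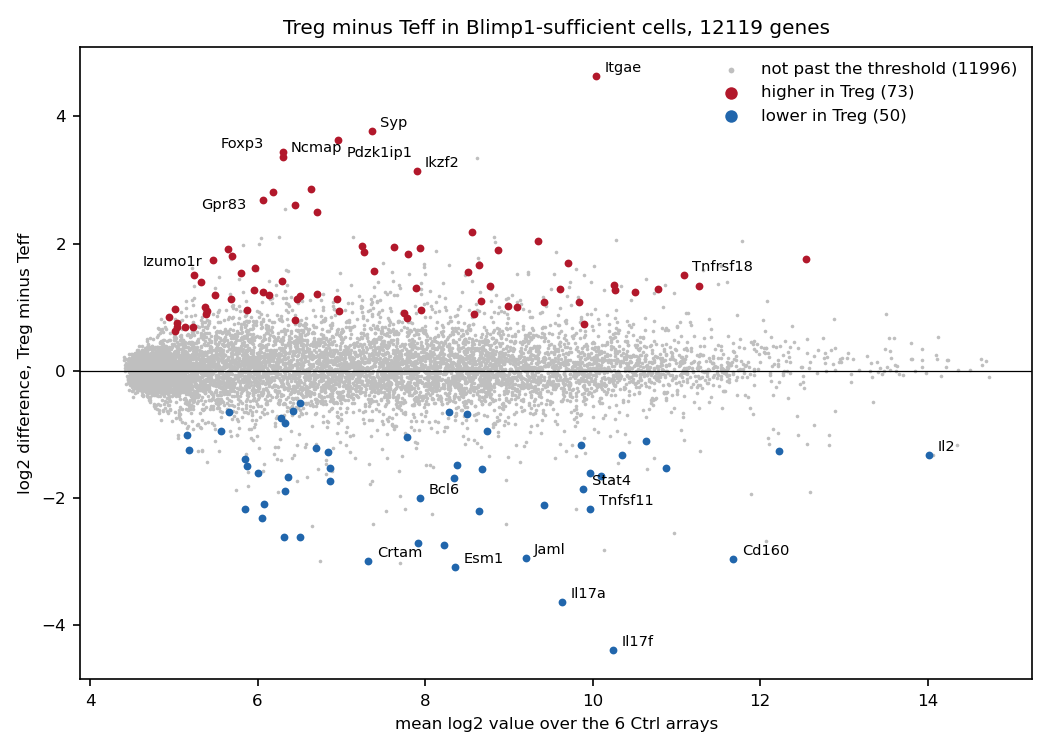
Difference between Treg and Teff (y axis, log2) against the mean log2 value over the 6 Ctrl arrays (x axis) for 12119 genes; the 73 genes higher in Treg are red, the 50 lower ones blue and the rest grey. Itgae has the largest rise (4.64) and Il17f the largest fall (-4.39), and the called genes include both dim and bright ones.

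Foxp3, the gene on which the cells were sorted, checks the labels. Values of Foxp3 were 8.94, 7.83 and 7.29 in Treg and 4.59, 4.42 and 4.73 in Teff. The groups were apart by 2.56 or more, and every Teff value lay near the background. The difference was 3.44 ± 0.40 (adjusted p = 0.0033), which for this gene describes the sort. It was seen with the brightest of 4 Foxp3 probes. Another probe differed by 0.86 ± 0.49, and the other two, near the background, by -0.24 ± 0.28 and -0.08 ± 0.10. Prdm1, which encodes Blimp1, was low in both Ctrl populations. Treg arrays read 5.19, 6.07 and 6.03 for Prdm1, and Teff arrays read 4.64, 5.39 and 4.73. The populations overlapped, and the difference of 0.85 ± 0.38 did not pass (adjusted p = 0.479). On the arrays labelled CKO the same probe read higher, from 8.47 to 9.48 in Treg and from 7.83 to 9.0 in Teff, against the direction the label implies for an intact transcript. Whether this probe lies inside the region removed in CKO is not stated in those labels, so Prdm1 checks neither genotype label, and Ctrl and CKO below mean the arrays so labelled.

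The surface receptors and enzymes that mark regulatory T cells were as a group higher in Treg. Of 18 tested, 17 had a positive difference, 4 passed upwards and 0 downwards, and the median was 1.28, against 0.012 over all genes, of which 52.4% were positive. The largest was Itgae, the alpha E integrin chain (CD103) that pairs with beta 7 and binds E-cadherin on epithelial cells. Itgae was at 12.46, 12.92 and 11.71 on the Treg arrays and at 7.29, 8.39 and 7.50 on the Teff arrays. Each Treg array was above each Teff array by at least 3.32, and the difference of 4.64 ± 0.53 (adjusted p = 0.00326) corresponds to 24.9-fold. All 5 other kept probes of Itgae were higher in Treg, by 0.86 to 4.54.

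Gpr83, a G protein-coupled receptor found in regulatory T cells, had the smallest p of all genes. Values of Gpr83 were 7.43, 7.59 and 7.20 in Treg and 4.72, 4.81 and 4.65 in Teff. Its Teff values were at the background, the Treg values lay close together, and the difference was 2.68 ± 0.17 (adjusted p = 0.000166). Izumo1r, the GPI-anchored protein also called folate receptor 4, showed the same order at a lower level. Treg arrays read 6.27, 6.70 and 6.08 for Izumo1r, and Teff arrays read 4.54, 4.62 and 4.64. The 2 groups lay 1.43 or more apart, with a difference of 1.75 ± 0.15 (adjusted p = 0.000999). Tnfrsf18, the costimulatory receptor GITR, was bright in both populations. Tnfrsf18 was at 12.09, 12.14 and 11.29 on the Treg arrays and at 10.23, 10.47 and 10.31 on the Teff arrays. The Teff values lay close together below the lowest Treg value, and the difference was 1.50 ± 0.20 (adjusted p = 0.00688). With 1 probe per gene, Tnfrsf18 was the only called member of 15 tested TNF receptor genes, of which 11 were positive (median 0.20). Cd27, another of them, differed by 1.39 and did not pass. Its other kept probes differed by 1.58 ± 0.31 and 1.15 ± 0.21.

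Several familiar Treg receptors differed by comparable amounts and did not pass. Ccr8, a chemokine receptor of activated Treg and Th2 cells, is the clearest case. Values of Ccr8 were 10.52, 10.25 and 10.10 in Treg and 5.92, 8.59 and 6.32 in Teff. The groups did not overlap, but Ctrl Teff 2 was well above the other Teff arrays, and the difference of 3.34 ± 0.71 had an adjusted p of 0.0653. Without Ctrl Teff 2 Ccr8 passed, with a difference of 4.17 (adjusted p = 0.019), and it passed without CKO Teff 2 too. Il2ra, the high-affinity chain of the IL-2 receptor, differed by 1.53 ± 0.32 (adjusted p = 0.0545), with Treg values of 9.33 to 10.38 and Teff values of 7.96 to 8.99, and passed without Ctrl Treg 1 (adjusted p = 0.0302) or Ctrl Teff 3. The inhibitory receptor Ctla4 differed by 2.04 ± 0.63 (adjusted p = 0.222), and the Teff value of array 3 (9.75) was below the other two (11.22 and 11.33). Ctla4 passed without CKO Teff 3 (adjusted p = 0.0366), which leaves its difference as it is. The differences were 1.52 ± 0.39 for Nt5e, the ecto-enzyme CD73, 1.22 ± 0.33 for Tnfrsf9, the receptor 4-1BB, 1.20 ± 0.41 for Nrp1 and 1.16 ± 0.38 for Tigit, with adjusted p-values from 0.131 to 0.297. Of these 4, Nt5e passed without Ctrl Teff 3 (adjusted p = 0.0499). Lag3, an inhibitory receptor, differed by 0.92 ± 0.35 (adjusted p = 0.356).

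**Figure D3:**
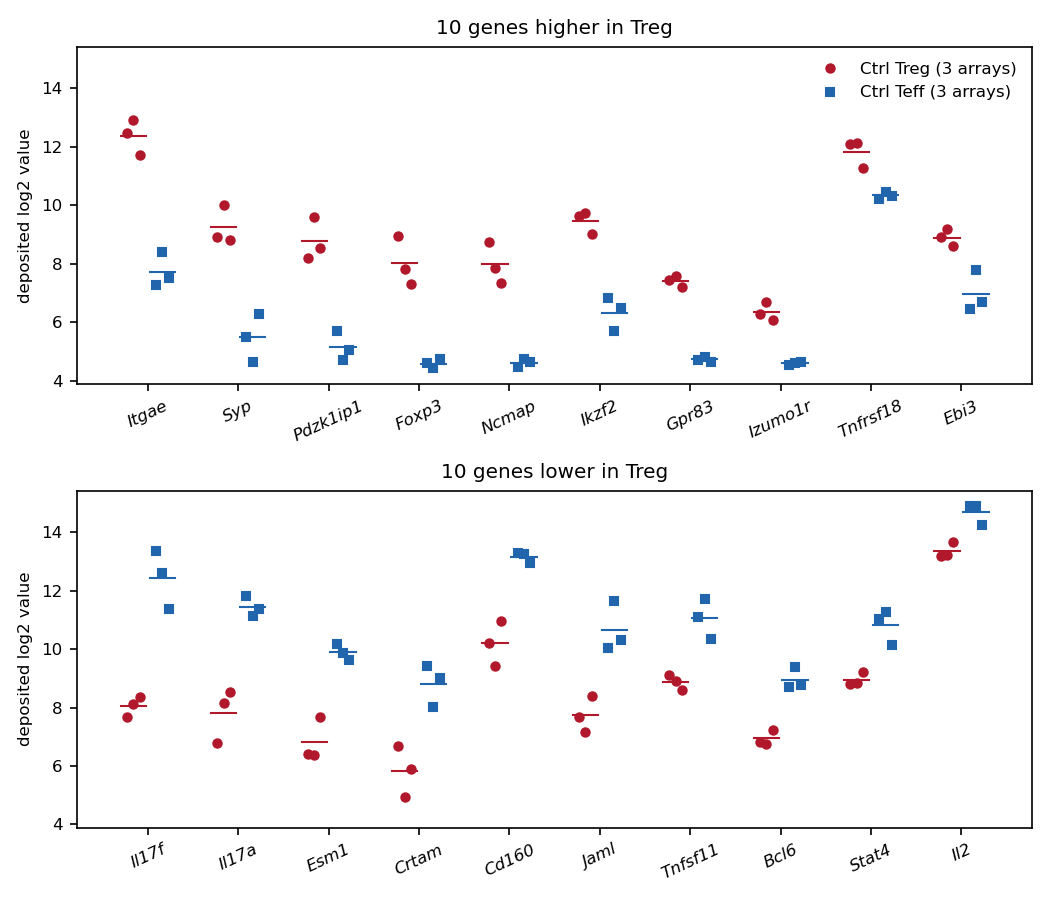
Deposited log2 values (y axis) of 10 genes higher and 10 genes lower in Treg on each Ctrl array; red circles are the 3 Treg arrays, blue squares the 3 Teff arrays, and lines the group means. In every gene shown the 2 groups do not overlap, and for Foxp3, Ncmap, Gpr83 and Izumo1r all Teff values lie below 5.

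Among 14 transcription factors linked to regulatory T cells, 2 passed, Foxp3 and Ikzf2, and the median was 0.07. Ikzf2 encodes Helios, an Ikaros-family factor. Treg arrays read 9.65, 9.72 and 9.03 for Ikzf2, and Teff arrays read 6.82, 5.68 and 6.49. The populations were 2.22 or more apart and the difference was 3.14 ± 0.45 (adjusted p = 0.00882). Without Ctrl Treg 2 its adjusted p was 0.0524. It was the only called gene of the 4 Ikaros-family genes tested. Gata3, the Th2 regulator that Treg also use, differed by 1.18 ± 0.37 (adjusted p = 0.222), and Batf, an AP-1 family factor, by 0.53 ± 0.22 (adjusted p = 0.419). Hopx, a homeodomain protein reported in induced Treg, was higher by 1.35 ± 0.25 (adjusted p = 0.0319, up to 0.162 without Ctrl Treg 1, Ctrl Treg 2, Ctrl Teff 1, Ctrl Teff 2, CKO Treg 1 or CKO Treg 3). Its values were 10.66 to 11.17 in Treg and 9.13 to 10.17 in Teff.

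Of 18 genes for secreted and effector molecules of Treg, 3 passed upwards and 0 downwards (median 0.51). Ebi3, the subunit shared by IL-27 and IL-35, was one. Ebi3 was at 8.91, 9.18 and 8.60 on the Treg arrays and at 6.44, 7.79 and 6.68 on the Teff arrays. Ctrl Teff 2 was again the highest effector array, 0.80 below the lowest Treg array, and the difference was 1.92 ± 0.33 (adjusted p = 0.0231, up to 0.12 without Ctrl Treg 1, Ctrl Treg 2, Ctrl Teff 1 or Ctrl Teff 3). Socs2, a STAT5-induced inhibitor of cytokine signalling, followed. Values of Socs2 were 10.63, 10.28 and 10.19 in Treg and 7.72, 8.41 and 8.85 in Teff. The difference was 2.04 ± 0.33 (adjusted p = 0.0172, up to 0.084 without Ctrl Treg 1, Ctrl Treg 2, Ctrl Teff 1 or Ctrl Teff 2), and Socs2 was the only called gene of 7 SOCS genes. The third was Dusp4, a nuclear MAP kinase phosphatase, at 1.08 ± 0.18 (adjusted p = 0.019, up to 0.11 without Ctrl Treg 1, Ctrl Treg 2, Ctrl Teff 1 or Ctrl Teff 3). Other kept probes of Dusp4 differed by 0.81 ± 0.26 and 0.10 ± 0.34. Il10, the anti-inflammatory cytokine, was bright in both populations. Treg arrays read 12.53, 11.62 and 12.52 for Il10, and Teff arrays read 12.46, 12.27 and 11.12. The arrays overlapped, and the difference of 0.27 ± 0.49 was far from the threshold (adjusted p = 0.941). Without Ctrl Teff 3 it had the opposite sign, at -0.14. Further members, Swap70 (2.09 ± 0.53), Ecm1 (1.52 ± 0.38) and the actin-capping protein Capg (1.09 ± 0.28), had adjusted p-values of 0.118 to 0.128, and Swap70 passed without CKO Teff 3 (adjusted p = 0.0351).

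The list of TGF-beta pathway genes also held the integrin gene Itgae. Of its 18 tested members 2 passed, Itgae and Tgfbr1, and the median was -0.06. Tgfbr1, the type I TGF-beta receptor, was higher by 1.70 ± 0.32 (adjusted p = 0.0345). Its values were 10.73, 10.99 and 9.95 in Treg and 9.12, 8.58 and 8.86 in Teff, and the call was lost without Ctrl Treg 1 or 2, without any 1 Teff array or without CKO Treg 2 (adjusted p up to 0.164). Twsg1, a secreted modulator of bone morphogenetic proteins outside that list, rose by 1.27 ± 0.19 (adjusted p = 0.0127, up to 0.0628 without Ctrl Treg 1 or Ctrl Teff 2), with 10.71 to 11.14 in Treg and 9.51 to 9.75 in Teff. Cytokine receptors and their signalling genes had 2 calls in 30, Tgfbr1 and Socs2.

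Many of the largest rises lay outside the lists of Treg genes. Syp, which encodes the vesicle protein synaptophysin, was second only to Itgae. Syp was at 8.90, 10.02 and 8.82 on the Treg arrays and at 5.50, 4.65 and 6.28 on the Teff arrays. The gap between the groups was 2.54 and the difference 3.77 ± 0.39 (adjusted p = 0.00262). Pdzk1ip1, a small membrane protein that binds the scaffold PDZK1, rose from near the background. Values of Pdzk1ip1 were 8.18, 9.59 and 8.54 in Treg and 5.71, 4.70 and 5.05 in Teff. The difference was 3.62 ± 0.58 (adjusted p = 0.0159), and it did not pass without Ctrl Treg 2 or without Ctrl Teff 2 (adjusted p up to 0.0814). Ncmap, named for its place in peripheral myelin, was at the background in Teff. Treg arrays read 8.74, 7.87 and 7.35 for Ncmap, and Teff arrays read 4.46, 4.75 and 4.64. The Treg values were uneven but all lay at least 2.60 above Teff, and the difference was 3.37 ± 0.30 (adjusted p = 0.00117).

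Some enzymes outside the lists were also called singly. Ephx1, microsomal epoxide hydrolase, differed by 2.86 ± 0.38 (adjusted p = 0.00677), with Treg values of 8.93, 8.09 and 7.18 above Teff values of 5.02 to 5.35. Rragd, a Rag GTPase that signals amino acids to mTORC1, differed by 2.81 ± 0.47 (adjusted p = 0.0215). Its Treg values were 8.20, 8.07 and 6.50, so the third array was much lower than the other two, and the call was lost in 5 of the 12 fits without 1 array. Oxct1, the enzyme that lets cells burn ketone bodies, rose by 1.94 ± 0.25 (adjusted p = 0.00548). Mt1, the zinc-binding metallothionein 1, was the brightest gene that rose. Mt1 was at 13.13, 13.86 and 13.30 on the Treg arrays and at 11.52, 11.97 and 11.50 on the Teff arrays. The difference was 1.76 ± 0.21 (adjusted p = 0.00397). Other bright members were Hacd3, an enzyme of very long chain fatty acid synthesis (1.33 ± 0.23), and Gm2a, the GM2 ganglioside activator (1.28 ± 0.23), each lost in 4 of those 12 fits.

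Further single genes rose. The adaptor Grb7 differed by 2.60 ± 0.34 (adjusted p = 0.00623), with 7.47 to 7.97 in Treg and 4.68 to 5.45 in Teff. Kcnk6, a background potassium channel, differed by 2.49 ± 0.27 (adjusted p = 0.00276), with 7.74 to 8.09 against 5.23 to 5.69. The tetraspanin Cd81 differed by 2.17 ± 0.41 (adjusted p = 0.0354) and the semaphorin receptor Plxnd1 by 1.96 ± 0.33 (adjusted p = 0.0203). Both calls were lost in several fits without 1 array, 7 for Cd81 and 4 for Plxnd1. Tlr1, a Toll-like receptor (1.53 ± 0.20), Psen2, a subunit of gamma-secretase (1.57 ± 0.15), the lysosomal protease Ctsz (1.55 ± 0.20) and the retromer-associated protein Snx2 (1.23 ± 0.13) had adjusted p-values from 0.00223 to 0.00623 and passed in all 12 such fits. With only the 6 Ctrl arrays fitted, Psen2 and Snx2 passed and Tlr1 and Ctsz did not. Other kept probes of Snx2 differed by less, 0.32 ± 0.33 and 0.68 ± 0.26, and that of Ctsz by 1.79 ± 0.16. The genes Cmtm6 (1.33 ± 0.17) and Cmtm7 (1.08 ± 0.19), membrane proteins of the MARVEL type, both rose, of 6 such genes tested, and Cmtm6 passed in all 12 (Cmtm7 was lost in 4).

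**Figure D4:**
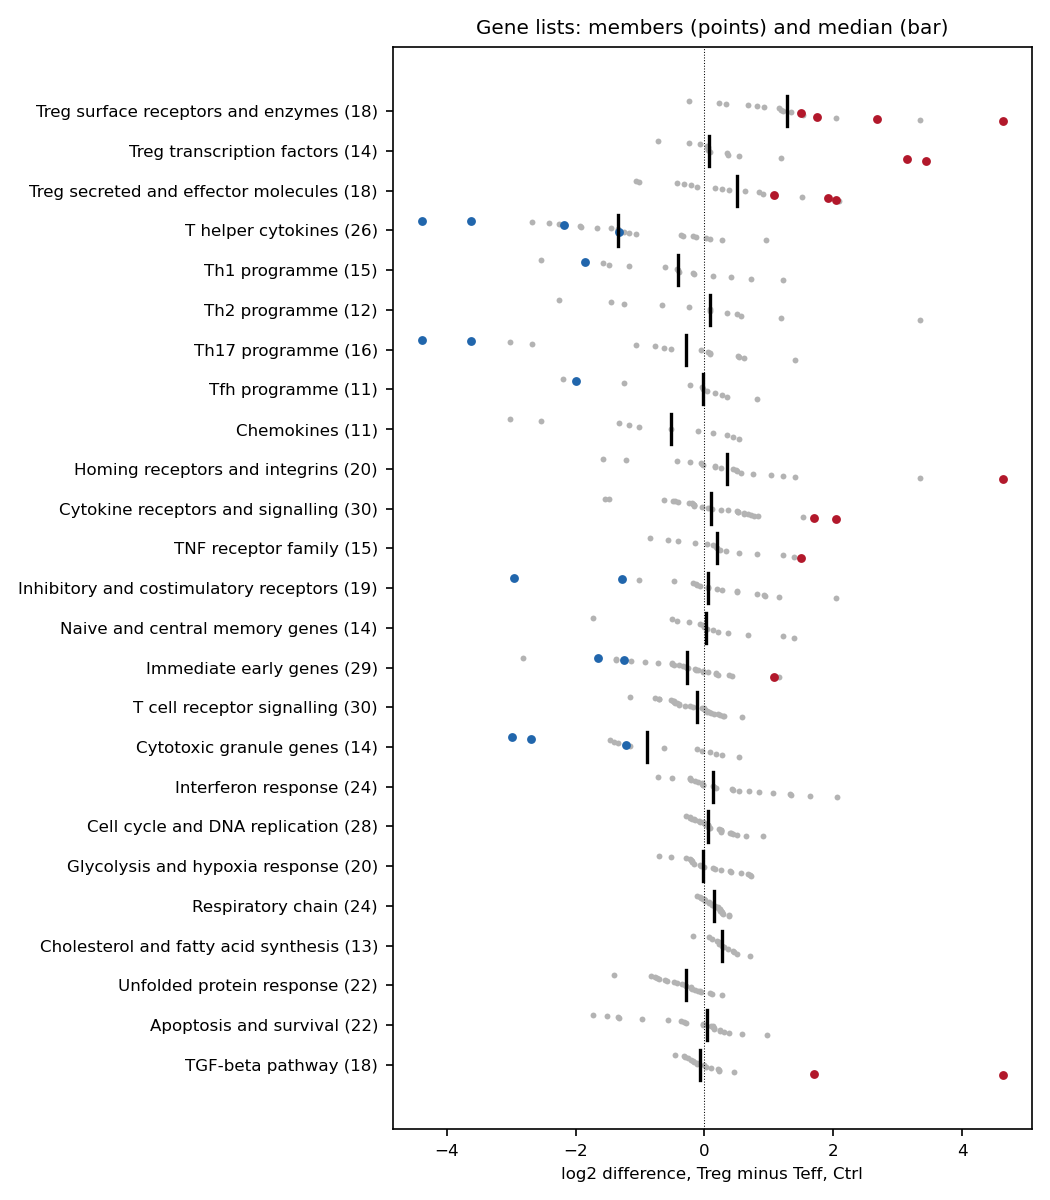
Differences between Treg and Teff in Ctrl (x axis, log2) of the tested members of 25 gene lists, with the number tested in parentheses; red and blue points passed the threshold upwards and downwards, grey points did not, and the black bar is the list median. The median is 1.28 for Treg surface receptors and -1.34 for T helper cytokines, and 0.06 for cell cycle and DNA replication.

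Cytokine genes were lower in Treg as a group. Of 26 tested T helper cytokines 22 had a negative difference, 4 passed downwards and 0 upwards, and the median was -1.34. The mean over the list was 8.47, 8.39 and 8.62 on the Treg arrays and 9.83, 10.46 and 9.25 on the Teff arrays, so the groups did not overlap. Ctrl Teff 2, which had the highest neutrophil marker mean, was the highest here too. Without it 4 of the 26 passed downwards, 20 were negative and the median was -1.08. The 4 were then Il17a, Il17f, Tnfsf11 and Il22 (-1.32, adjusted p = 0.0279), while Il2 did not pass (adjusted p = 0.0837), and the part of the neutrophil signal in the individual differences was not tested further.

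Il17f had the largest fall of all genes. Values of Il17f were 7.68, 8.12 and 8.34 in Treg and 13.35, 12.61 and 11.36 in Teff. The groups lay 3.02 or more apart and the difference was -4.39 ± 0.49 (adjusted p = 0.00326), a 21.0-fold lower level. Il17a, which encodes the partner chain of the IL-17 family and recruits neutrophils through epithelial and stromal cells, fell almost as far. Treg arrays read 6.78, 8.17 and 8.52 for Il17a, and Teff arrays read 11.83, 11.14 and 11.38. Again the groups did not overlap. The difference was -3.63 ± 0.37 (adjusted p = 0.00251). Both genes kept a level well above the background in Treg. Il2, the T cell growth factor, was among the brightest probes on every array. Il2 was at 13.17, 13.23 and 13.66 on the Treg arrays and at 14.89, 14.89 and 14.26 on the Teff arrays. The difference of -1.33 ± 0.23 (adjusted p = 0.0239, up to 0.121 without Ctrl Treg 1, Ctrl Treg 2, Ctrl Teff 1 or Ctrl Teff 2) was the smallest of the 4, and the Teff values approached 14.98, the highest value on any array. Tnfsf11, which encodes RANKL, differed by -2.18 ± 0.32 (adjusted p = 0.0106, up to 0.0548 without Ctrl Treg 2 or Ctrl Teff 1). Values of Tnfsf11 were 9.12, 8.92 and 8.60 in Treg and 11.11, 11.72 and 10.35 in Teff. All Treg values lay below all Teff values.

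The other effector cytokines named here were also lower and did not pass in the model of all arrays. Csf2, Tnfsf8 and Tnfsf14 differed by about as much as Tnfsf11, with larger standard errors. The differences of Lta, Il22 and Ifng were smaller. Csf2, which encodes GM-CSF, had a value of 12.15 on Ctrl Treg 3 against 10.30 and 9.74 on the other two Treg arrays and 12.96 to 14.03 on the Teff arrays. Its difference was -2.68 ± 0.62 (adjusted p = 0.09, and 0.0223 without Ctrl Treg 3). The corresponding differences were -2.41 ± 0.53 for Tnfsf8 (CD30 ligand), -2.17 ± 0.49 for Tnfsf14 (LIGHT), -1.91 ± 0.53 for Tnf, -1.34 ± 0.33 for Lta and -1.06 ± 0.24 for Il22, with adjusted p-values from 0.0703 to 0.162. Leaving out Ctrl Teff 3 brought Tnfsf8 and Tnfsf14 past the threshold, and leaving out CKO Treg 2 or 3 also did so for Tnfsf8 (adjusted p down to 0.0316 for Tnfsf8 and 0.0333 for Tnfsf14). Ifng, interferon gamma, was at 14.22, 12.25 and 14.82 in Treg and at 14.98, 14.98 and 14.82 in Teff. The highest Treg value equalled the lowest Teff value to 2 decimals, 2 Teff values lay at the top of the scale, and the difference was -1.17 ± 0.50 (adjusted p = 0.443). Among 11 chemokines 0 passed in limma (median -0.52, 5 with an unadjusted p under 0.05). Without Ctrl Teff 2 the median was -0.27 and Xcl1, which attracts cross-presenting dendritic cells, passed downwards (-1.72, adjusted p = 0.0473). Ccl20, which attracts CCR6-positive cells, differed by -3.02 ± 0.65 and Ccl5 by -2.54 ± 0.54, with adjusted p-values of 0.0681 and 0.06. Both passed without CKO Teff 2, and Ccl5 also without Ctrl Treg 3 or CKO Teff 3.

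Regulators of the helper programmes were lower in a few single genes. Of 15 Th1 genes 1 passed, Stat4, the factor that transmits IL-12 signals. Treg arrays read 8.82, 8.85 and 9.21 for Stat4, and Teff arrays read 11.05, 11.25 and 10.15. The groups did not overlap, and the difference was -1.86 ± 0.30 (adjusted p = 0.017, up to 0.0934 without Ctrl Treg 1, Ctrl Treg 2, Ctrl Teff 1 or Ctrl Teff 2). Without Ctrl Teff 2, 0 of the 15 passed and the list median moved from -0.42 to -0.04. Stat4 was the only called gene of 6 STAT genes. Of 11 genes of T follicular helper cells 1 passed, Bcl6, a repressor that opposes Blimp1. Bcl6 was at 6.83, 6.75 and 7.24 on the Treg arrays and at 8.70, 9.37 and 8.76 on the Teff arrays. The groups were 1.46 or more apart and the difference was -2.00 ± 0.25 (adjusted p = 0.0053). Of 16 Th17 genes the 2 IL-17 genes passed, with a list median of -0.29. Of 12 Th2 genes 0 passed (limma), although 6 had an unadjusted p under 0.05. Zeb2, a zinc-finger transcriptional repressor, was lower by a difference of -1.69 ± 0.32 (adjusted p = 0.0355), a call lost in 8 of the 12 fits without 1 array.

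A list of cytotoxic granule and related genes leaned lower in Treg. It also held genes of other kinds, such as the adhesion receptor Crtam and the protease inhibitor Serpinb6b. Of its 14 tested genes 3 passed downwards, 0 upwards and 10 were negative (median -0.90). Crtam, an adhesion receptor of activated cytotoxic T cells, is at the head of them. Values of Crtam were 6.67, 4.92 and 5.89 in Treg and 9.43, 8.02 and 9.0 in Teff. The difference was -2.99 ± 0.56 (adjusted p = 0.0319), and 5 of the 12 fits without 1 array lost the call. Serpinb6b, an intracellular protease inhibitor, differed by -2.70 ± 0.41 (adjusted p = 0.013, up to 0.068 without Ctrl Treg 1, Ctrl Treg 2 or Ctrl Teff 1). The granzyme Gzmm differed by -1.22 ± 0.24 (adjusted p = 0.0455), a value just inside the threshold that 10 of those 12 fits put outside it. Without Ctrl Teff 2, 2 of the 14 passed.

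Cd160, a receptor for HVEM found on intraepithelial and cytotoxic lymphocytes, was among the brightest genes that fell. Treg arrays read 10.21, 9.44 and 10.95 for Cd160, and Teff arrays read 13.28, 13.26 and 12.94. Teff values lay close together, 1.99 or more above Treg, and the difference was -2.96 ± 0.39 (adjusted p = 0.00657). Cd96, a receptor for CD155, was lower as well, by a difference of -1.28 ± 0.22 (adjusted p = 0.0221, up to 0.0929 without Ctrl Treg 1, Ctrl Treg 3, Ctrl Teff 1 or Ctrl Teff 2). These were the 2 called genes of 19 inhibitory and costimulatory receptors (median 0.06). Jaml, an adhesion molecule that binds the epithelial receptor CAR, fell to a similar extent. Jaml was at 7.67, 7.15 and 8.38 on the Treg arrays and at 10.04, 11.66 and 10.30 on the Teff arrays. Its difference was -2.94 ± 0.47 (adjusted p = 0.0159, up to 0.0862 without Ctrl Treg 1 or Ctrl Treg 2). Of 12 tested CD8 T and NK cell markers 0 passed, and 1 had an unadjusted p under 0.05, Klrd1 (-2.44 ± 0.55, adjusted p = 0.0816, and 0.0161 to 0.0196 without CKO Teff 2 or 3). The mean of that list was 5.17 to 5.66 in Treg and 5.47 to 5.92 in Teff.

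Esm1, a secreted proteoglycan known from endothelium as endocan, was the third largest fall. Values of Esm1 were 6.41, 6.36 and 7.68 in Treg and 10.19, 9.88 and 9.63 in Teff. Ctrl Treg 3 was higher than the other Treg arrays but lay 1.95 below the lowest Teff array, and the difference was -3.08 ± 0.36 (adjusted p = 0.00328). Mmp10, a matrix metalloproteinase, differed by -2.74 ± 0.49 (adjusted p = 0.027), Hs3st3b1, which sulphates heparan chains, by -2.31 ± 0.41 (adjusted p = 0.027), and Slc17a6, a vesicular glutamate transporter, by -2.61 ± 0.41 (adjusted p = 0.0156). Each was lost in 3 to 5 of the 12 fits without 1 array. The signalling genes Sphk1, which makes sphingosine 1-phosphate (-2.10 ± 0.31), and Card10 (-2.17 ± 0.39) and the calcium channel gene Mcoln2 (-2.09 ± 0.33) were lower too, with adjusted p-values of 0.0115 to 0.0265. Card10 was lost in 5 of those 12 fits (adjusted p up to 0.137), and Sphk1 and Mcoln2 in 3 each. Bcl2a1c, of the anti-apoptotic A1 family whose near-identical copies can share signal, was lower by a difference of -1.54 ± 0.23 (adjusted p = 0.0108, up to 0.0594 without Ctrl Treg 1, Ctrl Treg 2 or Ctrl Teff 1).

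Some genes linked by binding of their proteins or by family moved in opposite directions, a pattern picked after the values were seen. Pdzk1, the scaffold protein that Pdzk1ip1 binds, was lower where Pdzk1ip1 was higher. Treg arrays read 4.83, 4.79 and 5.39 for Pdzk1, and Teff arrays read 8.01, 7.49 and 7.34. Its difference was -2.61 ± 0.29 (adjusted p = 0.00326), and the call held in all 12 fits without 1 array. Of 9 KCNK potassium channel genes, Kcnk6 rose and Kcnk5 fell (-2.20 ± 0.44, adjusted p = 0.0473, lost in 10 of those fits). Of 19 DUSP phosphatases 1 rose, Dusp4, and 2 fell. Dusp2, which is nuclear like Dusp4 and induced by activation, had values of 11.42 to 11.70 in Treg and 12.64 to 13.00 in Teff. Its difference was -1.26 ± 0.14 (adjusted p = 0.00326). Dusp6, the cytoplasmic ERK phosphatase, differed by -1.66 ± 0.27 (adjusted p = 0.017, up to 0.0839 without Ctrl Treg 1, Ctrl Treg 2, Ctrl Teff 1 or Ctrl Teff 2). These 3 were also the only calls among 29 immediate early genes, of which 21 were negative (median -0.26). Without Ctrl Teff 2, 15 of those 29 were negative and the median was -0.01.

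The lists of general processes gave 0 calls in limma, with 1 probe tested per gene. T cell receptor signalling had 0 of 30 (6 with an unadjusted p under 0.05), cell cycle and DNA replication 0 of 28 (2), the respiratory chain 0 of 24 (0), glycolysis and the hypoxia response 0 of 20 (6), and apoptosis and survival 0 of 22 (8). Bcl2a1c, called lower above, was not in the apoptosis list. Bcl2, which was in it, differed by -1.73 with the tested probe and did not pass. Its other kept probes ran from 0.01 to -1.73, the last with a standard error of 0.17 (limma, unadjusted p = 1.26e-06). The unfolded protein response was negative in 19 of 22 genes (median -0.29, 4 with an unadjusted p under 0.05), led by Chac1, a glutathione-degrading enzyme (-1.41 ± 0.35, adjusted p = 0.112, and 0.0307 without CKO Teff 2). The mean over that list was 7.49 to 7.72 on the Ctrl Treg arrays and 8.20, 7.60 and 8.11 on Ctrl Teff 1 to 3. Ctrl Teff 2 thus lay within the Treg range. Cholesterol and fatty acid synthesis was positive in 12 of 13 (median 0.27). The glycolytic enzymes Ldha and Pkm had values of 12.44 to 12.90 and 12.37 to 12.55 in Treg and of 11.88 to 12.26 and 11.93 to 12.10 in Teff, and their differences of 0.71 ± 0.16 and 0.40 ± 0.11 had adjusted p-values of 0.0839 and 0.144.

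The interferon-response values depended on 1 array. Of 24 tested 0 passed (2 with an unadjusted p under 0.05) and the median was 0.14. The mean over the list was 7.47 to 7.69 on the Treg arrays and 6.70, 8.25 and 6.69 on the Teff arrays, so Ctrl Teff 2 lay above every Treg array and the other two below. Without Ctrl Teff 2 the median was 0.87 and 1 gene passed, Igtp. This interferon-induced GTPase had 11.31, 11.37 and 11.26 in Treg and 8.65, 10.09 and 9.02 in Teff, a difference of 2.06 ± 0.42 (adjusted p = 0.0528, 0.0268 without Ctrl Teff 2 and 0.0157 without CKO Teff 3). Psmb9, an immunoproteasome subunit induced by interferon gamma and not in that list, passed at 1.29 ± 0.22 (adjusted p = 0.0221, up to 0.119 without Ctrl Treg 1, Ctrl Treg 2 or Ctrl Teff 1).

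Several called genes sit side by side on their chromosomes. In the RefSeq order of protein-coding genes (GRCm38.p6), 6 pairs of direct neighbours were both called, and in 6 of 6 pairs both moved the same way. They are Il17a with Il17f, Cd160 with Pdzk1 and Ehd3 with Xdh among the lower genes, and Gpr83 with Izumo1r, Cmtm6 with Cmtm7 and Ppp1r3f with Foxp3 among the higher ones. Xdh and Cmtm7 lost their calls in 9 and 4 of the 12 fits without 1 array. Of 7445 neighbouring pairs with both genes tested, 146 had 1 called gene. Syp is the third gene after Foxp3 on the other side from Ppp1r3f, and the genes between them, Ccdc22 and Cacna1f, were not tested. Ppp1r3f, a subunit that targets protein phosphatase 1 to glycogen, had Treg values of 6.49 to 6.97 and Teff values of 4.81 to 5.41, a difference of 1.62 ± 0.21 (adjusted p = 0.00567). The genes flanking the Gpr83 pair, Mre11a and Panx1, differed by 0.25 and 0.59 and did not pass, and those flanking the IL-17 pair that were tested did not pass either (Mcm3 differed by -0.09).

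Promoter sequence was set beside these calls with 5 short motifs, searched on both strands in the 250 bases before the start of each gene's first listed transcript (RefSeq, GRCm38.p6). The motifs were TGANTCA for AP-1, TGGAAA for the NFAT core, TGTTTAC for forkhead factors, TGTGGT for Runx factors and TATAAA for the TATA box. No motif is contained in another. The table held promoters for 54 of the 73 higher and 43 of the 50 lower genes, and for 9822 of all genes tested. The TATA box stood in 18.6% of the lower genes' promoters and 7.41% of the higher genes', against 8.95% of all genes tested and 13% of all promoters in the table. The NFAT core stood in 23.3% and 13% (15.8% and 18.7% in those backgrounds), the Runx motif in 23.3% and 14.8% (11.2% and 14.2%), AP-1 in 9.3% and 3.7% (5.29% and 6.87%) and the forkhead motif in 4.65% and 1.85% (2.42% and 3.09%). These shares rest on 1 to 10 genes each and are descriptions. A match is a string of letters and no site of binding.

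The promoters of the Gpr83 and IL-17 pairs, of Foxp3 and of Il2 are printed as examples of where these motifs lie in higher and lower genes. They run 5′ to 3′ on the gene's own strand, and capitals mark the motifs, on either strand.
Foxp3 (chrX:7579426-7579675, + strand): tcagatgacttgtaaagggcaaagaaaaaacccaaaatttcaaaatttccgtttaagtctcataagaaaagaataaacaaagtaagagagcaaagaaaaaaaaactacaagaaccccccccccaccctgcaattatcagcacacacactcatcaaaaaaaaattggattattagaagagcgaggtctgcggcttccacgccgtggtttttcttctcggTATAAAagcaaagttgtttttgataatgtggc
Gpr83 (chr9:14859960-14860209, + strand): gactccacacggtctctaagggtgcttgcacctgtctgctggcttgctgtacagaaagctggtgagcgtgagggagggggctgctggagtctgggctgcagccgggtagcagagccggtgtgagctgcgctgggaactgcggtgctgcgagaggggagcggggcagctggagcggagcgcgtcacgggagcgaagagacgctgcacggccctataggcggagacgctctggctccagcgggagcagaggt
Izumo1r (chr9:14903768-14904017, - strand): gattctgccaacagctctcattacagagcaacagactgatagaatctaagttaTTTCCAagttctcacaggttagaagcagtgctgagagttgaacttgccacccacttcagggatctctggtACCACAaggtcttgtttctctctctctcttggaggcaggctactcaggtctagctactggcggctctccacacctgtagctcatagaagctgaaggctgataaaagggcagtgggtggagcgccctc
Il17a (chr1:20730655-20730904, + strand): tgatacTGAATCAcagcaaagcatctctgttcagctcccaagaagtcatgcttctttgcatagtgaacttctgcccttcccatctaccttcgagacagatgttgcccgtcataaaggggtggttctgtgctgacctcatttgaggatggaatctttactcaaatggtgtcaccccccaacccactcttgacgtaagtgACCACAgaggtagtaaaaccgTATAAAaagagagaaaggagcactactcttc
Il17f (chr1:20784271-20784520, - strand): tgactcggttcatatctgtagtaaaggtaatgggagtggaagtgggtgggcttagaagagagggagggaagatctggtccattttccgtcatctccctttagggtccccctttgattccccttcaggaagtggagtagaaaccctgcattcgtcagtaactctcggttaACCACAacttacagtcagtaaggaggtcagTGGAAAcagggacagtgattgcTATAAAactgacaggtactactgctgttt
Il2 (chr3:37125955-37126204, - strand): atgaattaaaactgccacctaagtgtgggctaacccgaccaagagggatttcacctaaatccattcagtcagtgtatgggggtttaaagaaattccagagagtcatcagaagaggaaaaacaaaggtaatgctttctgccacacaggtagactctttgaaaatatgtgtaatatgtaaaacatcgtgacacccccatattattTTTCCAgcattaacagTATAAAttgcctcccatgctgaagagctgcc

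Il17a, Il17f and Il2 each carried a TATA box close to the start, and so did Foxp3, for which the first listed start is shown. Both IL-17 promoters and Izumo1r held a Runx motif in the reverse orientation. Il17a alone of the 6 held an AP-1 motif, at the far end of its window. The NFAT core stood in Il17f and, in reverse, in Il2 and Izumo1r. Gpr83 held none of the 5 motifs and was the richest in G and C (66.8%), whereas its neighbour Izumo1r, which rose with it, had 50%.

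The same contrast in cells labelled Blimp1-deficient, which shares no array with it but shares the estimate of spread, gave 43 genes (0.355% of those tested), 21 higher and 22 lower. That count was 16 without CKO Treg 1, 20 without CKO Teff 1, 23 without CKO Treg 2, CKO Treg 3 or CKO Teff 2, 27 without Ctrl Teff 1 and 259 without CKO Teff 3. Markers of other cells were high on some CKO Teff arrays. The mean of 11 basophil and mast cell markers was 9.12, 8.60 and 5.48 on CKO Teff 1 to 3, against 5.08 to 5.62 on the CKO Treg arrays and 5.05 to 6.21 on the Ctrl arrays. That of 12 CD8 T and NK cell markers was 6.81, 8.43 and 5.76 on CKO Teff 1 to 3 and 5.05 to 5.44 on the CKO Treg arrays. The neutrophil mean was 8.69, 9.08 and 6.57 against 5.62 to 7.59. The median CKO differences of these 3 lists were -2.59, -1.34 and -1.19, with 1 call among them, Klrd1, which was lower. The part of these cells in the CKO values was not tested. Of the 123 genes called in Ctrl, 29 were called there too, all in the same direction (16 higher, 13 lower). These are 23.6% of the Ctrl calls and 67.4% of the CKO calls. Of the 73 genes higher in Ctrl Treg, 68 had a positive difference in CKO, where 55.7% of all genes did, and of the 50 lower genes 49 had a negative one (44.3% of all genes). The median differences were 1.30 in Ctrl and 0.86 in CKO for the higher genes and -1.57 and -1.01 for the lower genes. Since the genes were chosen by their Ctrl values, a smaller median in CKO follows in part from that choice. Ctrl and CKO cells had been injected into the same hosts, and the labels do not say which arrays share one.

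Foxp3 was higher in Treg by 3.44 in Ctrl and by 3.41 in CKO. Itgae, Syp and Esm1 were called in both, with CKO differences of 3.75 ± 0.53, 3.31 ± 0.39 and -3.24 ± 0.36. Il17f and Il17a, by contrast, had CKO differences of -2.42 ± 0.49 and -1.97 ± 0.37 that did not pass (adjusted p = 0.067 and 0.0532), and the difference between the genotypes was not called for either (adjusted p = 1 for both).

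Of all 12119 genes, 2 differed between Treg and Teff by an amount that itself differed between the genotypes (0.0165%), while 421 (3.47%) had an unadjusted p under 0.05. Both had been called in Ctrl. Gpr83 was at 4.96, 5.03 and 5.57 in CKO Treg and at 4.41, 4.59 and 4.72 in CKO Teff. Its Ctrl Treg values of 7.20 to 7.59 lay above all of these, and the difference between genotypes was 2.07 ± 0.24 (adjusted p = 0.0308). Ky, which encodes a muscle protein named for the kyphoscoliosis mouse, was at 6.10, 6.07 and 5.81 in Ctrl Treg and between 4.25 and 4.62 in the other 3 groups. The difference between genotypes was 1.54 ± 0.17 (adjusted p = 0.0308). Each passed in 12 of the alternative fits, of 26 for Gpr83 and 25 for Ky. Without 1 array the number of such genes was 22 (CKO Teff 3), 1 (CKO Treg 3), 3 (Ctrl Treg 3) or, without any of the other 9 arrays, 0. Next by p, and not past the threshold, were Ncmap (2.79 ± 0.43), Izumo1r (1.36 ± 0.21) and the chemokine Cx3cl1 (1.20 ± 0.18), each with an adjusted p of 0.15. For Ncmap and Izumo1r the CKO differences were 0.57 ± 0.30 and 0.39 ± 0.15. Cx3cl1 was near the background in both Ctrl populations and in CKO Treg and at 5.51 to 5.93 in CKO Teff.

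**Figure D5:**
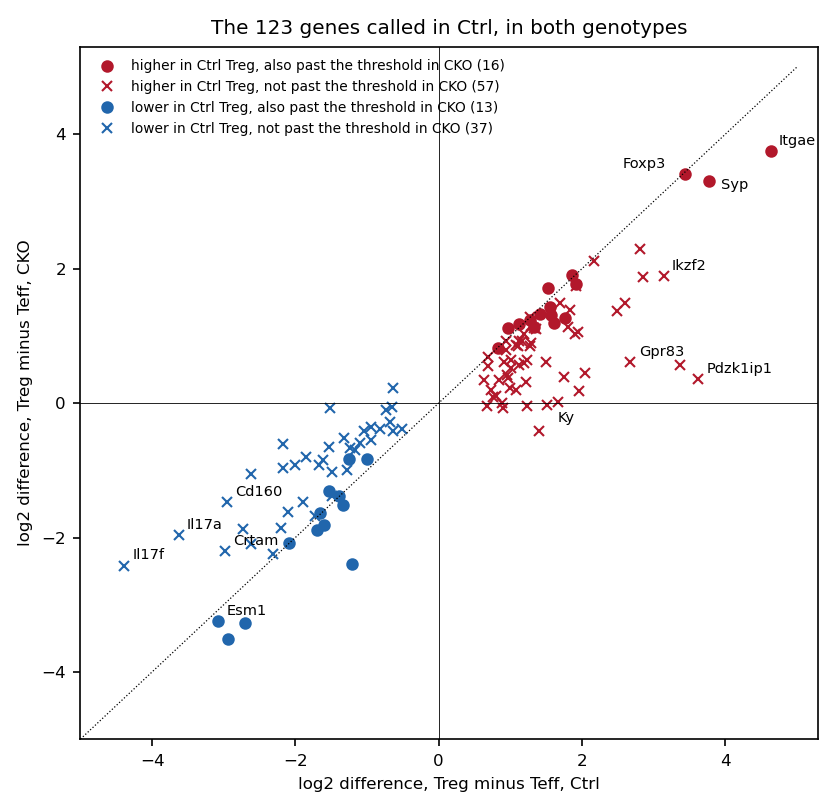
Treg minus Teff differences (log2) of the 123 genes called in Ctrl, in Ctrl (x axis) and CKO (y axis); circles also passed in CKO, crosses did not, red and blue mark genes higher and lower in Ctrl Treg, and the dotted line marks equal differences. Foxp3 lies on the line, and Gpr83 and Ky lie at 0.61 and -0.03 on the CKO axis.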

How the data were processed

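Each of the 12 samples was 1 Illumina mouse array of biotin-labelled cRNA. The deposited table holds 1 log2 value per probe and array, with a maximum of 14.98. GenomeStudio and limma 3.30.11 are the tools in the submitters' processing notes. The deposited log2 values have near-equal quantiles on all arrays and were not scaled again. How the authors corrected the background and normalized the arrays is not stated in the labels. Of 31641 probes, 28197 carried 1 gene symbol in the platform annotation, 5 several and 3439 none. Probes above their array's median on at least 3 of the 12 arrays were kept (17579 named probes), and each gene took the kept probe that was brightest on average, which left 12119 genes. For 57 called genes 86 other probes were kept. Of these 81 had the same sign as the tested probe and 5 the opposite, and 51 of the 81 had an unadjusted p under 0.05 (limma). Differences were tested on the log2 scale in a model of all 12 arrays with 1 mean per group (limma 3.58.1, R 4.3.3, eBayes, two-sided). The p-values were Benjamini-Hochberg adjusted over all genes, with a threshold of 0.05. Differences between genotypes were tested as the interaction in the same model. On simulated data with 12119 genes this contrast recovered 59% of genes changed by 1 and 93% of genes changed by 2 on the log2 scale, with 5 false calls of 157. The simulated noise took each gene's own spread but was independent between genes and between arrays. It held no signal that many genes of an array share, as neutrophil markers do. The recovery and false calls therefore need not hold for the real arrays.

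Genes were named by a rule: Foxp3 and Prdm1, the 15 largest rises and falls, up to 6 members per list, the 5 brightest calls in each direction and the 5 smallest p-values in each direction for the genotype difference. Others were named after their values were seen. Members and lists were chosen with earlier results of these data known. Alternatives were 2 scalings, 2 probe filters, 2 treatments of several probes per gene, trend and robust variance, array weights, the replicate block, the compared groups alone and leaving out each array. Chosen after seeing the data were the array set, which dim probes separate (set A holds Ctrl Treg 1 and Ctrl Teff 1 and 2, set B the other 3 Ctrl arrays), and the neutrophil mean. RefSeq promoters (GRCm38.p6) were matched by gene.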

Additional observations from a re-analysis of the deposited data

Results flagged for a closer look

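Gpr83 and Ky differed between Treg and Teff by more in the arrays labelled Ctrl than in those labelled CKO, by a test of that difference itself. It was 2.07 ± 0.24 for Gpr83 and 1.54 ± 0.17 for Ky on the log2 scale (limma, Benjamini-Hochberg adjusted p = 0.0308 for each), and every Ctrl Treg value of both genes lay above all other arrays. Over the alternatives the adjusted p ran from 0.00923 to 1 for Gpr83 and from 0.00492 to 1 for Ky.

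Probe ILMN_1228038, which carries no gene name in the annotation used and so stands outside the comparison of genes, was higher in Treg. It was at 6.82, 7.42 and 6.57 in Ctrl Treg and at 4.75, 4.86 and 4.83 in Ctrl Teff, a difference of 2.13 ± 0.24 (adjusted p = 0.00581 over the 1817 unnamed probes). It was the only unnamed probe past the threshold.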

How the results depend on the processing

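The count of 123 genes (73 higher, 50 lower) was 99 to 178 under both scalings, both probe filters, both treatments of several probes, trend and robust variance and the array set as a term. It was 247 (144 and 103) with array weights, 29 (17 and 12) with only the 6 Ctrl arrays, 186 (79 lower) with the neutrophil mean as a term, and 44 to 163 (28 to 96 higher, 16 to 67 lower) without 1 array. Array sets A and B alone each gave 0 genes in limma, 0 higher and 0 lower (886 and 935 with an unadjusted p under 0.05). Array weights gave 245 genes in CKO, the 75th percentile filter 82, trend and robust variance 86, only the CKO arrays 4, the array set as a term 66, set A or B alone 0 (895 and 873 unadjusted), and leaving out 1 array 16 to 259. The difference between genotypes gave 0 genes with the 75th percentile filter, the neutrophil mean (519 unadjusted) or set A or B alone (368 and 349 unadjusted), 4 with trend and robust variance, and 0 to 22 without 1 array. The cause of these shifts was not tested. The Il10 difference ran from -0.14 (without Ctrl Teff 3) to 0.57 (without Ctrl Treg 2) when 1 array was left out, and was 0.95 in array set B alone and at most 0.58 under the other alternatives.

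With the replicate block as a fixed term 333 genes passed in Ctrl (193 higher, 140 lower), 250 in CKO and 1 for the genotype difference, and as a random block 266 (152 and 114) and 175. The labels tie the numbers to no shared animal. Deviations of same-numbered Ctrl Treg and Ctrl Teff arrays correlated at 0.0916, -0.266 and 0.265. Same-numbered Ctrl and CKO arrays were not compared in this way. On Treg 1 to 3 the neutrophil mean was 8.49, 5.77 and 8.14 in Ctrl and 7.42, 5.62 and 7.59 in CKO. On Teff 1 to 3 it was 7.37, 9.50 and 5.78 in Ctrl and 8.69, 9.08 and 6.57 in CKO. Each CKO array fell in the same array set as the Ctrl array of its population and number. Whether same-numbered arrays share a host was not tested. With the block 123 of the 123 genes still passed. Of the 3 Ctrl Treg arrays, 1 correlated best with the Ctrl Teff array of its own number. Probes near the background or at 14.98 limit the size of a difference.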
